A study of Arabidopsis thaliana with 12 samples.

Results

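The genes described here are 72 Arabidopsis thaliana genes with an intron retention event in the deposited splicing tables of a study of SmEb, a core protein of the spliceosome, under salt stress. They were chosen by their rows in those tables, that is, selected on read numbers that the authors had tested between samples of this series: every gene with a row of the type IR was taken, genes that also had a cassette exon row were left out (1 gene), and 3 further genes were left out by name. Of 76 genes with such a row, 25 came from the SmEb-dependent table and 47 from the SmEb-independent table, and 0 genes stood in both. The tables together name 330 genes with any event, and the expression table holds 33559 genes. Each member has 1 event. The highest false discovery rate (FDR) in the authors' deposited table was 0.0214 for the SmEb-dependent members and 0.0419 for the SmEb-independent members, and events beyond these were not analysed here.

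The series compared whole seedlings of the wild type Col-0 with seedlings of smeb-1 and smeb-2, mutants in the same Col-0 strain background, at 12 days of age on MS medium, either untreated or given 200 mM NaCl with a labelled time of 6 h. Each of the 6 groups has 2 sequencing libraries of total RNA, which the labels do not tie to separate cultures, so p-values measure the spread between these libraries. The SmEb gene itself was at 58.9 and 55.1 FPKM (fragments mapped to the gene, scaled to transcript length and library size) in untreated Col-0, at 27.6 and 26.0 in untreated smeb-1 and at 4.93 and 6.24 in untreated smeb-2, so it was lower in both mutants and lowest in smeb-2. The header of the SmEb-dependent table sets smeb with NaCl against Col-0 without naming the Col-0 treatment. The read totals of its 137 events followed the FPKM differences between salt-treated smeb and untreated Col-0 (Spearman's rho across events 0.846) more closely than those against salt-treated Col-0 (0.255), and the column is read here as untreated Col-0. The SmEb-independent table sets salt-treated against untreated Col-0 (rho 0.83 over 208 events). Both tables pool the libraries of a condition, and the first names smeb without saying which mutant, so a read share has no replicate check, and its 95% Wilson interval covers counting error only.

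Introns are removed by the spliceosome, whose small nuclear ribonucleoproteins carry a ring of Sm proteins around their RNA. When an intron stays in the messenger RNA, the event is called intron retention, the most frequent kind of alternative splicing in plants. A retained intron between coding exons often brings a stop codon into the reading frame, and such a transcript can be degraded by nonsense-mediated decay or held in the nucleus. A retained intron in the 5′ untranslated region leaves the protein as it is and alters the leader that ribosomes scan.

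In the tables each event has a number of reads that skip the interval and a number of other reads, and the share of other reads is given here as the measure of retention. It is not scaled to interval length, so it is not the share of transcripts that keep the intron. The deposited intervals include 1 exonic base on each side of the intron. Against the RefSeq annotation of TAIR10.1, 22 of the 25 SmEb-dependent events and 28 of the 47 SmEb-independent events matched an annotated intron of the listed gene at both ends. A further 2 and 5 events matched an intron of another gene, which overlaps the listed one except in the case of AT2G35120. The remaining 1 and 14 events lay inside an annotated exon. All 50 intervals at an intron of the gene were exonic in at least 1 other annotated transcript of that gene, so both forms are in the annotation.

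The 50 events at introns of the gene were mostly outside the coding sequence. Among the 22 SmEb-dependent ones 13 lay in the 5′ UTR, 2 in the 3′ UTR, 1 in a noncoding RNA and 6 between coding exons. Among the 28 SmEb-independent ones 12 lay in the 5′ UTR, 1 in the 3′ UTR, 1 in a noncoding RNA and 14 between coding exons. In the annotation as a whole, 8.28% of 131098 introns of protein-coding genes lie outside the coding part. That set is unlike the 50 events, as it is not limited to expressed genes or to introns that are exonic in another transcript. For 15 of the 22 and 14 of the 28 the event was the first intron of its transcript. Of the introns between coding exons, 6 of 6 in the SmEb-dependent table and 9 of 14 in the SmEb-independent table held a stop codon in the frame of the upstream exon, beside 89.0% of all such introns in the annotation.

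Some introns, 3 from each table, are shown as examples that can be compared by eye, each between coding exons, with the splice-site bases GT and AG at the ends in capitals. They are the introns of that kind with the smallest FDR and the canonical ends, within 300 bases, and their sequences are those of RefSeq TAIR10.1 read 5′ to 3′ on the gene's strand. The SmEb-dependent ones belong to CA1 (chr3:194892-195178, minus strand, the last intron of 9 in its transcript), STR16 (chr5:26410806-26410868, plus strand) and GRF11 (chr1:12743987-12744076, minus strand, the last of 6), and 3 of 3 hold an in-frame stop.
CA1: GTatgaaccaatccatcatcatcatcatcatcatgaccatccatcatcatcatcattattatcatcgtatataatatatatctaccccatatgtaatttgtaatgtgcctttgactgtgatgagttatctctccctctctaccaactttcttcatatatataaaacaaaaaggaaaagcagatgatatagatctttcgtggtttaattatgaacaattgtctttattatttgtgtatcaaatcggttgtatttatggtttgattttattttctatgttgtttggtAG
STR16: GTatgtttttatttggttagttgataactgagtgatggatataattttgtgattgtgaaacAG
GRF11: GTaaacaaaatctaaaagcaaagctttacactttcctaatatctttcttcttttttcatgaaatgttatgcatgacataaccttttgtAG
The SmEb-independent ones belong to AT2G04039 (chr2:1333704-1333777, plus strand), HDS (chr5:24362882-24362966, plus strand) and MC3 (chr5:25696861-25696947, plus strand). The HDS intron holds no in-frame stop, while those of AT2G04039 and MC3 do.
AT2G04039: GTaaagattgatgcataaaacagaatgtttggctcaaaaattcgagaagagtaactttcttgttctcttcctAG
HDS: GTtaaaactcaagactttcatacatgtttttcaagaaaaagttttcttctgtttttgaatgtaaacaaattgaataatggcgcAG
MC3: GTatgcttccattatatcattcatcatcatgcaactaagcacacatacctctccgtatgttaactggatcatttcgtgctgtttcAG

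Median event lengths were close in both tables, and the upper quartile was longer in the SmEb-independent one. The median was 99 bases in the SmEb-dependent table, with quartiles of 86 and 106, and 110 bases in the SmEb-independent table, with quartiles of 88.5 and 173.5. The median annotated intron, measured without flanking bases, has 101 bases, with quartiles of 86 and 180. The event lengths include the flanking exonic base on each side and the intervals inside exons. Events at introns of the gene alone had medians of 100.5 bases in the SmEb-dependent table and 116 in the SmEb-independent one. The shortest SmEb-dependent event was the 65-base interval of STR16, and the longest was the 552-base interval of AT5G40880, a WD-40 repeat protein. The shortest SmEb-independent event was a 26-base interval inside an exon of CP29, a chloroplast RNA-binding protein, and the longest was the 545-base interval of an intron in the 3′ UTR of AT3G15010, an RNA-binding protein with RRM domains. The GC content of the introns of the gene had a median of 34.6% in the first table and 33.6% in the second, beside 32.8% over all annotated introns.

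In the SmEb-dependent table the share of reads that did not skip the intron was higher in salt-treated smeb than in Col-0, read as untreated, for 21 of 25 genes. It was lower for 4, and the intervals of the 2 conditions were apart for all 25. Mutation and salt change together in this contrast. No share of these events is given for untreated smeb or salt-treated Col-0, so the part of each cannot be told apart. These shares are values on which the rows were selected, so they are a description with no test. The median change was 16.98 percentage points, and 13 genes changed by at least 20 points. The largest rise was at GRF11, a 14-3-3 protein of the family that binds phosphorylated partners: 34 of 102 reads (33.3%, interval 24.9 to 42.9) did not skip its last intron in Col-0 and 37 of 43 (86.0%, 72.7 to 93.4) in salt-treated smeb. UGT80B1, a sterol glucosyltransferase, rose from 39.6% (32.9 to 46.6) to 78.4% (70.9 to 84.4) at an intron of the 5′ UTR. RHC1A, a RING-H2 finger protein, rose from 52.1% to 82.7%, also in the 5′ UTR. EER4, a TFIID subunit of the general transcription machinery, rose from 39.7% to 67.2% at the last intron, in the 3′ UTR.

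The SmEb-dependent events with the smallest FDR in the authors' deposited table were, apart from GRF11, those of CA1, STR16, AT3G06125, AT5G04830 and AT1G26208. CA1, a chloroplast carbonic anhydrase and one of the most highly expressed leaf genes, went from 93.9% of 11662 reads to 95.9% of 17781 reads, a change of 1.99 points that rests on a very deep count. STR16, a sulfurtransferase, went from 3.79% to 11.9%, and AT5G04830, a protein of the nuclear transport factor NTF2 family, from 4.31% to 19.1%. AT3G06125, a noncoding RNA with a single intron, went from 89.2% to 97.4%. At some introns, such as that of STR16, most reads skipped the interval in Col-0. At others, such as those of CA1 and AT3G06125, few reads did.

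The 4 genes whose share was lower in salt-treated smeb had the event in a first intron of the 5′ UTR of the gene or of its overlapping partner. AT1G26130, annotated as an E1-E2 type ATPase, fell from 76.6% (64.9 to 85.3) to 12.9% (5.13 to 28.9), over 64 and 31 reads. AT5G40880 fell from 91.9% to 52.4% and AT1G18660, a RING finger protein, from 71.3% to 47.2%. The fourth, AT1G26208, belongs to a pair of overlapping genes described further on. AT1G28060, the orthologue of the pre-mRNA-splicing factor PRP3, was the 1 SmEb-dependent gene with its event inside a coding exon. Its share rose from 74.9% of 211 reads to 94.8% of 464 reads.

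**Figure D1:**
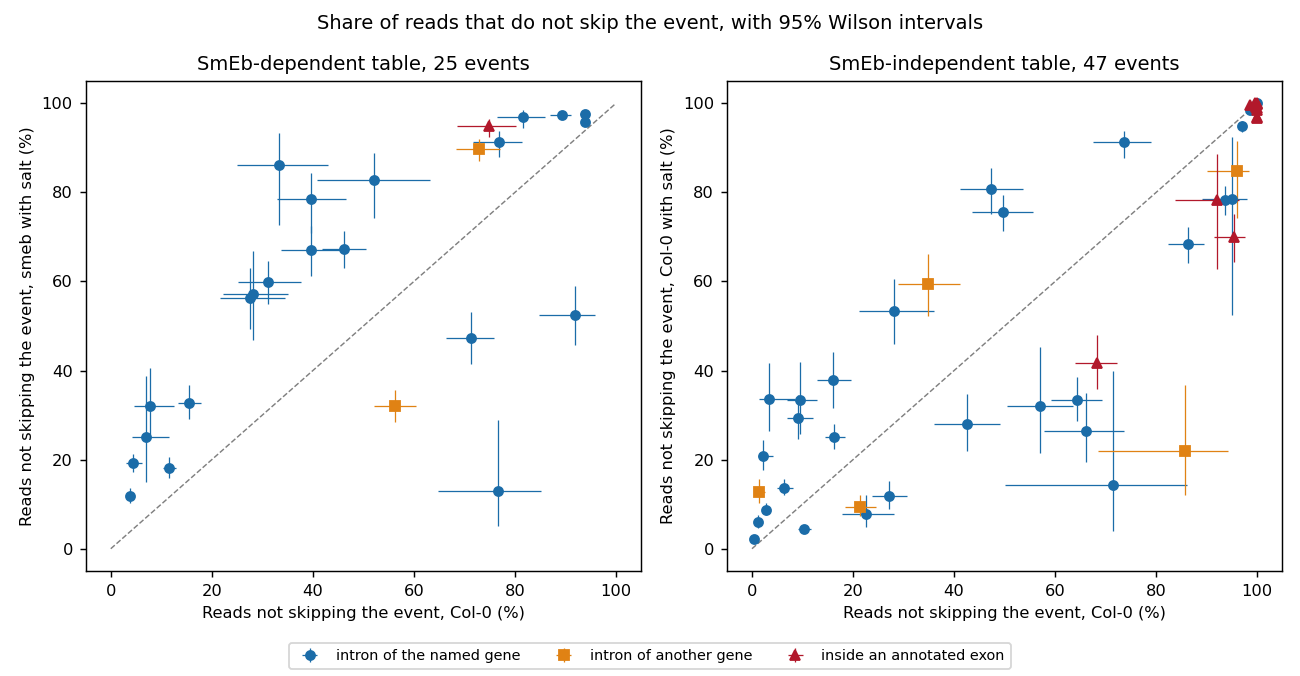
Share of reads (%) that do not skip the event in Col-0 (horizontal axis) and with salt (vertical axis), in smeb for the 25 SmEb-dependent events and in Col-0 for the 47 SmEb-independent events; bars are 95% Wilson intervals, colours and shapes give the place of the event. In the first panel 21 points lie above the dashed line of equal shares, and in the second 19 lie above it and 27 below, with most events inside exons at the upper right corner.

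In the SmEb-independent table the changes went both ways. With salt in Col-0 the share of reads not skipping the event was higher for 19 of 47 genes, lower for 27 and equal for 1, UBQ11, with a median change of -0.10 points over the 45 events with at least 20 reads in each condition. Restricted to the 28 events at an intron of the gene it was higher for 14, lower for 13 and equal for 1, and the median change over the 26 of them with at least 20 reads was 3.30 points. The direction is again part of what the rows were selected on. The first of the 2 numbers in the deposited expression fields moved the same way as the share for 25 of 25 SmEb-dependent events and 39 of 47 SmEb-independent ones. What these numbers count is not given in the sources used here.

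The largest rises at introns of the gene were at AT4G02550, a protein with a Myb/SANT-like domain, from 47.3% to 80.8%, and at BIM1, a bHLH transcription factor of brassinosteroid signalling, from 3.42% (1.34 to 8.46) to 33.6% (26.3 to 41.7). AT1G78200, a protein phosphatase 2C, rose from 49.6% to 75.6%. MC3, a metacaspase (a protease of the caspase-like family), rose from 9.13% to 29.4%, and AT2G04039, a chloroplast DUF2996 protein, from 2.21% to 20.8%. HDS, an enzyme of the plastid isoprenoid pathway, went from 2.80% to 8.80%. ATG8E, a ubiquitin-like protein of autophagosomes, rose from 16.3% to 25.1% and RABE1c, a small GTPase of vesicle transport, from 1.16% to 5.98%. The read share at these introns was low in untreated Col-0, except in AT4G02550 and AT1G78200.

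The largest falls at introns of the gene were at AT1G69280, from 71.4% to 14.3% over 21 and 14 reads, and FRS3, a FAR1-related protein, from 66.2% (57.8 to 73.7) to 26.4% (19.4 to 34.9). The 3′ UTR intron of AT3G15010 fell from 64.4% to 33.4% and the intron of AT1G61180, a resistance protein of the NB-ARC class, from 57.1% to 32.1%. AT5G25560, a zinc finger protein and the event at an intron of the gene with the smallest FDR, fell from 93.6% to 78.3%. FBA6, a fructose-bisphosphate aldolase of glycolysis, went from 10.3% to 4.35%. So both directions included introns of the 5′ UTR and introns between coding exons.

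The 14 SmEb-independent events inside an exon had another appearance. In 12 of them at least 95% of the reads did not skip the interval in untreated Col-0, and 11 changed by less than 5 points. The interval was skipped by 0 reads in untreated Col-0 for 5 of them. They were covered by a median of 6008 reads in untreated Col-0, beside 389 for the 28 events at an intron of the gene. In 11 of them the interval was within coding sequence, and in 11 its length without the flanking bases was a multiple of 3. Of the 5 SmEb-independent members with an FDR of 0 in the authors' deposited table, 4 were in this class: NIA2, a nitrate reductase, AT4G19200, a proline-rich protein, AT5G39570, and the event listed under AT5G36940. The fifth was AT5G25560, at an intron of the 5′ UTR, and the next smallest FDR was that of AT1G13930, again inside an exon. For NIA2, 40 of 9408 reads skipped the interval in untreated Col-0 and 1 of 13771 with salt. For AT5G39570 it was 0 of 7500 and 161 of 11534, and for AT4G19200 0 of 2679 and 160 of 4889. For AT1G13930 it was 0 of 28796 and 19 of 31569.

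These exonic intervals had matching bases at both ends. The bases just before an interval can equal its last bases, or those just after it its first bases, in which case the interval can slide without a change in the joined sequence. The number of such bases had a median of 8.5 in the 14 intervals and reached 62 in NUC-L1, a nucleolin that acts in ribosomal RNA synthesis. It was 26 in PRP4, a proline-rich cell wall protein, 16 in CP29 and 3 in NUDT7. The count was at least 6 bases in 10 of the 14, in 0 of 25 SmEb-dependent intervals, and in 2.63% of all annotated introns. Among the 28 SmEb-independent introns of the gene it reached 6 in 1, the GC-AG intron of the glycine-rich gene AT2G05510, with 17. Of the 4 exonic events with an FDR of 0, the 3 with the most reads are printed with both copies of the repeated bases in capitals and the bases between them in lower case, on the plus strand of TAIR10.1. They lie at chr1:7145918-7145958 for the event listed under AT5G36940, chr1:14161410-14161481 for NIA2 and chr5:15844597-15844658 for AT5G39570. Why intervals with such ends were listed was not tested.
AT5G36940: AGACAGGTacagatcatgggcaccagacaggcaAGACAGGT
NIA2: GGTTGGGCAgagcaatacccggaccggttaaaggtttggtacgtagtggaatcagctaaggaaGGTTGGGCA
AT5G39570: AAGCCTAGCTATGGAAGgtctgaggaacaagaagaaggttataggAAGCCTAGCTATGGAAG

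**Figure D2:**
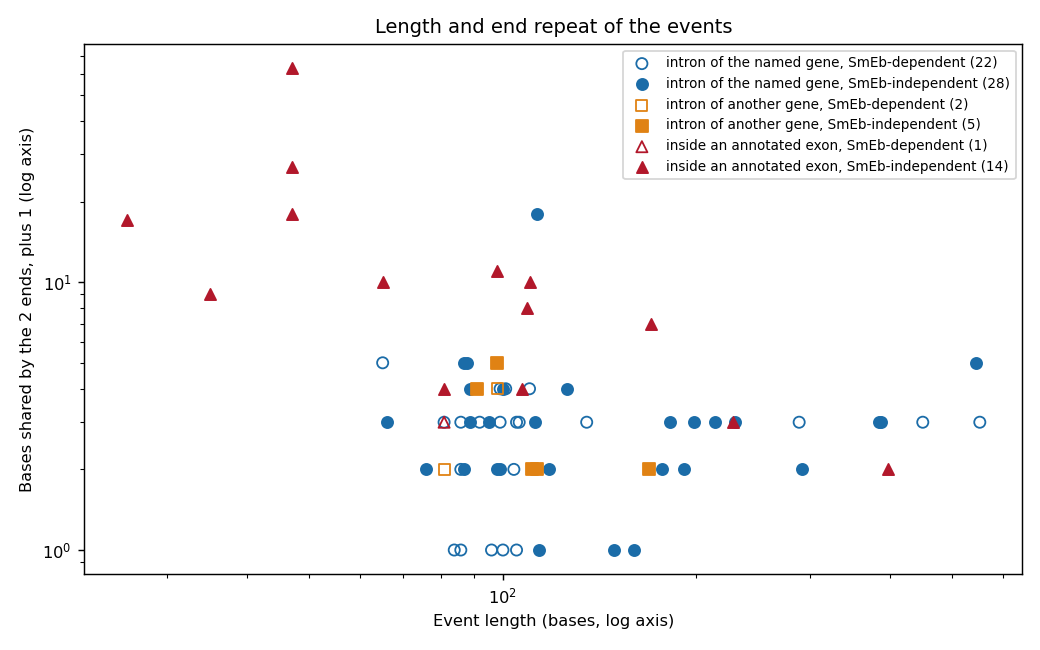
Length of each event (bases, log axis) and the number of bases shared by its ends plus 1 (log axis), by place and table. The events inside exons of the SmEb-independent table reach 62 shared bases, while the SmEb-dependent events reach 4.

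Some events belong to another gene than the one listed. The event listed under AT5G36940, a cationic amino acid transporter on chromosome 5, has coordinates on chromosome 1 within an exon of AT1G20620, catalase 3, which breaks down hydrogen peroxide. RefSeq gives the symbol CAT3 to both genes. AT1G20620 was at 2265 and 2318 FPKM in untreated Col-0 and at 385 and 541 with salt, whereas AT5G36940 was at 20.1 and 18.6 and at 11.6 and 8.12. The read totals at the event, 63228 and 12238, are those of a very highly expressed gene. The event listed under AT2G35120, a single hybrid motif protein on chromosome 2, has coordinates on chromosome 5 in the first intron of AT5G07440, glutamate dehydrogenase 2, where the share fell from 21.3% to 9.46%.

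AT1G26208, a noncoding RNA, and SOFL1, a SOB five-like gene of cytokinin-related growth, overlap on opposite strands, and both were SmEb-dependent members. The interval listed for AT1G26208 is an intron of the SOFL1 5′ UTR, and its share fell from 56.3% to 32.0%. The interval listed for SOFL1 is an intron of AT1G26208, and its share rose from 72.9% to 89.8%. SOFL1 was at 21.2 and 18.0 FPKM in untreated Col-0, at 28.5 and 35.8 in salt-treated smeb-1 and at 28.9 and 32.0 in salt-treated smeb-2. AT1G26208 was at 8.84 and 6.84, at 3.66 and 4.62, and at 6.53 and 4.25 in the same groups. At each interval the share of reads that did not skip it was thus higher in the condition in which the gene for which the interval is exonic was higher and its partner lower. Whether the counting used strand is not given in the sources used here, so reads of the partners cannot be told apart. The SmEb-independent intervals of WNK4, AT3G11560, AT4G17098 and AT4G25719 are likewise introns of AT5G58340, AT3G11570, AT4G17100 and AT4G25720. AT4G25719 was the 1 member too low to be tested for expression, while AT4G25720 was at 24.1 and 23.3 FPKM in untreated Col-0 and 15.4 and 16.1 with salt.

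Gene expression was compared on the log2(FPKM + 1) scale with limma over all 12 libraries, and a difference is called where the adjusted p over 20251 genes was below 0.05. The FPKM of a gene sums its transcripts, retained or spliced. The 71 members tested were more highly expressed than other genes, with a median of the mean FPKM of 33.3, beside 12.4 over all genes tested. In whole seedlings fewer cells of a type and less RNA per cell cannot be told apart. The summed FPKM of 5 shoot markers was 9061 to 11410 in the untreated libraries and 1741 to 3804 with salt, and that of 5 root markers was 49.6 to 69.1 and 71.1 to 158.9. CA1, itself a member, is 1 of the 5 shoot markers. The shoot markers did not move alike over the 12 libraries. LHCB1.1 ranged from 6.82 to 2472 FPKM, LHCB2.1 from 14.9 to 1936 and LHCB3 from 33.7 to 4919. CA1 ranged only from 1022 to 2542 and GAPB from 653 to 1040. Among the root markers NRT2.1 ranged from 0.0525 to 32.3 and PHT1;1 from 21.7 to 111.4. The sums therefore do not measure the amount of shoot or root tissue. None of the 10 markers was at 0, and their part in the expression differences below was not tested.

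With salt, the members were called lower more often than higher. In smeb-1, 22 of 71 were higher and 31 lower, where 31.0% and 26.8% of all genes were called. In smeb-2, 20 were higher and 34 lower, beside 32.0% and 27.7%. In Col-0, 18 were higher and 33 lower, beside 34.1% and 27.7%. The Col-0 contrast is the one in which the 46 tested SmEb-independent members were selected, and their 12 higher and 19 lower calls are given as a description. The median difference of the members was -0.14 in smeb-1, -0.24 in smeb-2 and -0.15 in Col-0, beside 0.03, 0.03 and 0.04 over all genes. The 25 SmEb-dependent members were selected with the salt-treated smeb libraries, so their calls in the mutants are a description too. Of these, 11 were higher and 10 lower in smeb-1, and 8 were higher and 11 lower in smeb-2. Of the 46 SmEb-independent members, 11 were higher and 21 lower in smeb-1, and 12 were higher and 23 lower in smeb-2.

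AT5G04830 rose in all 3 lines, from 38.6 and 45.0 FPKM to 84.4 and 87.2 in Col-0, from 44.2 and 47.0 to 89.0 and 90.7 in smeb-1 and from 43.1 and 45.5 to 95.3 and 97.2 in smeb-2. No salt-treated library overlapped with an untreated one, and the difference in limma was 1.02 ± 0.07 (SE, n = 2 per group, adjusted p = 1.98e-06), 0.96 ± 0.07 (adjusted p = 3.63e-06) and 1.104 ± 0.07 (adjusted p = 1.23e-06). AT5G40880, AT3G06125 and UBQ11, a polyubiquitin gene, were the other genes with the largest rises in the mutants. AT3G06125 was at 53.8 and 66.0 FPKM in untreated smeb-1 and at 143 and 160 with salt (1.33 ± 0.12, limma adjusted p = 8.22e-06). In Col-0 NUC-L1 went from 136 and 127 FPKM to 230 and 247 (0.86 ± 0.07, limma adjusted p = 4.95e-06). CNX2, an enzyme of molybdenum cofactor synthesis on which nitrate reductase depends, went from 22.2 and 19.8 to 32.4 and 44.4 (0.83 ± 0.15, limma adjusted p = 0.000747). The salt libraries of both genes lay above the untreated ones.

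The largest falls with salt were those of RLP19, a receptor-like protein with leucine-rich repeats, and AT1G73470. RLP19 was at 24.4 and 23.2 FPKM in untreated Col-0 and at 3.32 and 6.59 with salt, at 16.9 and 21.4 and at 4.70 and 4.41 in smeb-1, and at 22.7 and 19.2 and at 5.03 and 4.61 in smeb-2. Its differences were -2.11 ± 0.22, -1.85 ± 0.22 and -1.91 ± 0.22 (limma adjusted p = 1.95e-05, 5.84e-05 and 4.20e-05), and the groups did not overlap. AT1G73470 fell from 47.3 and 48.7 to 13.2 and 12.4 FPKM in Col-0 (-1.83 ± 0.06, limma adjusted p = 2.25e-08). GRF11, with the largest rise in the SmEb-dependent read shares, fell from 15.5 and 15.4 FPKM to 5.47 and 4.13 in smeb-1 (-1.51 ± 0.17, limma adjusted p = 4.97e-05) and from 15.1 and 16.8 to 5.37 and 5.66 in smeb-2 (-1.38 ± 0.17, limma adjusted p = 8.30e-05). In Col-0 GRF11 fell too, from 13.4 and 15.4 to 6.07 and 9.53 (-0.83 ± 0.17, limma adjusted p = 0.002). Its difference of responses between smeb and Col-0 was not called (-0.61 ± 0.21, limma adjusted p = 0.0992). MC3 fell from 38.6 and 37.8 to 13.6 and 15.4 in smeb-1 and from 36.3 and 44.3 to 14.2 and 18.2 in smeb-2. AT3G53990, an adenine nucleotide hydrolase-like protein, fell in Col-0 from 320 and 348 to 135 and 184 (-1.08 ± 0.12, limma adjusted p = 3.75e-05).

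Salt-treated smeb against untreated Col-0 is the contrast that chose the SmEb-dependent members. In it 8 of 25 were called higher and 15 lower, where 34.8% and 31.0% of all genes were called, and this is a description. AT1G28060, the PRP3 orthologue, was at 11.9 and 11.2 FPKM in untreated Col-0, at 20.2 and 21.7 in salt-treated smeb-1 and at 21.5 and 21.6 in salt-treated smeb-2. GUT15, a noncoding RNA of the other table, was at 233 and 225 FPKM in untreated Col-0 and at 79.6, 76.0, 83.0 and 81.2 in the 4 salt-treated mutant libraries.

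**Figure D3:**
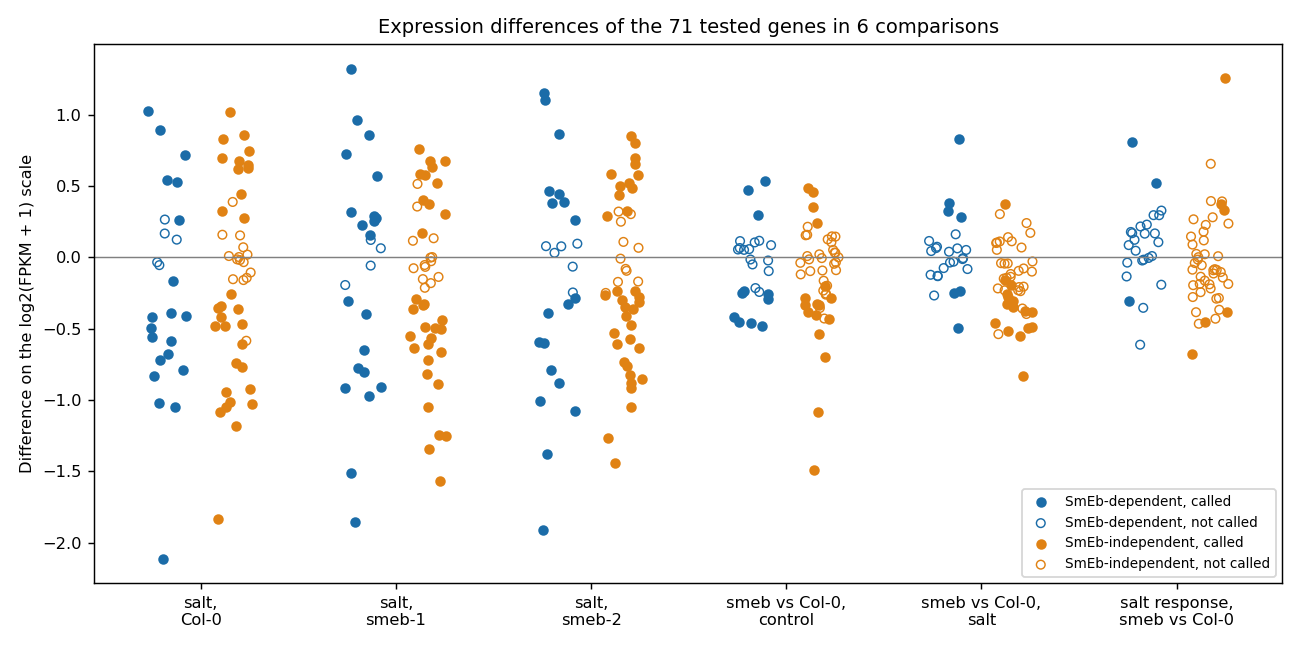
Difference of each of the 71 tested genes on the log2(FPKM + 1) scale in 6 comparisons, by table; filled points were called by limma (adjusted p below 0.05), open points were not. The salt comparisons spread from -2.11 to 1.33. The comparisons of smeb with Col-0, without and with salt, lie mostly between -0.5 and 0.5, with more called points below 0 than above. The difference of salt responses has 5 called points above 0 and 4 below.

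In untreated seedlings 7 of 71 members were called higher in smeb than in Col-0 and 21 lower, where 11.6% of all genes were called higher and 13.0% lower. The 21 lower calls are 29.6% of the members, 8 of 25 SmEb-dependent and 13 of 46 SmEb-independent genes. Untreated Col-0 was the reference in which the rows of both tables were selected, so these counts are a description. The median difference was -0.05, beside -0.01 over all genes. The count of 28 calls ranged from 13 to 36 when single libraries were left out.

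The glycine-rich gene AT2G05510 had the largest fall, from 120 and 140 FPKM in Col-0 to 41.7 and 69.9 in smeb-1 and 34.0 and 42.6 in smeb-2 (-1.49 ± 0.21, limma adjusted p = 0.000858). NUDT7, a nudix hydrolase that restrains defence responses, was at 121 and 96.9 in Col-0, at 47.7 and 64.5 in smeb-1 and at 49.0 and 43.0 in smeb-2 (-1.08 ± 0.13, limma adjusted p = 0.000344). GUT15 was at 233 and 225, at 147 and 142 and at 136 and 139 (-0.70 ± 0.06, limma adjusted p = 6.29e-05). In these 3 genes all 4 mutant libraries lay below both Col-0 libraries. AT5G36940 was lower as well (-0.54 ± 0.13, limma adjusted p = 0.0148), but without Col-0 library 0 or 1 the adjusted p was 0.116 or 0.0659. Its event lies in catalase 3, whose own FPKM was not called (-0.15 ± 0.13, limma adjusted p = 0.443).

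The largest rises in untreated smeb were of CA1, CP29, AT1G28060 and TGA1. CA1 was at 1541 and 1638 FPKM in Col-0, at 2281 and 2255 in smeb-1 and at 2274 and 2413 in smeb-2 (0.54 ± 0.12, limma adjusted p = 0.011). CP29 was at 706 and 643, at 956 and 868 and at 887 and 1087 (0.49 ± 0.08, limma adjusted p = 0.0027). AT1G28060 was at 11.9 and 11.2, at 17.9 and 15.2 and at 15.5 and 17.2 (0.47 ± 0.09, limma adjusted p = 0.0054). In each of the 3 genes the mutant libraries lay above those of Col-0. TGA1, a bZIP transcription factor of nitrate and defence responses, differed by 0.46 ± 0.12 (limma adjusted p = 0.0199). Leaving out Col-0 library 0 ended the call of CA1 (adjusted p = 0.0916) and TGA1 (0.144), and leaving out Col-0 library 1 ended those of CA1 (0.057), AT1G28060 (0.0625) and TGA1 (0.0751). TGA1 also lost its call without smeb-1 library 1 (0.0525) and without smeb-2 library 0 (0.051).

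With salt, 5 of 71 members were called higher in smeb than in Col-0 and 18 lower, where 12.8% of all genes were called higher and 14.9% lower. The lower calls were 3 of 25 SmEb-dependent and 15 of 46 SmEb-independent genes, and the higher calls were 4 and 1. The median difference was 0.00 for the SmEb-dependent members, -0.18 for the SmEb-independent ones and -0.03 over all genes. Salt-treated smeb and salt-treated Col-0 were also among the conditions that selected the rows, so these counts are a description as well. The count of 23 calls rested on the salt-treated Col-0 libraries, which differed more from each other than any other pair, with a median absolute log2 difference of 0.167 over all genes beside 0.0847 to 0.0998. It was 36 without Col-0 salt library 0 and 10 without Col-0 salt library 1. With salt the summed shoot markers were at 2303 and 1741 FPKM in Col-0 and at 2912 to 3804 in the mutants. The summed root markers were at 71.1 and 78.1 and at 90.6 to 158.9, so both sums were higher in the mutants. Most of each shoot sum was CA1, itself a member. Its own values were 1445 and 1022 FPKM for Col-0, against a range of 1875 to 2542 for the mutants. The shoot sums are therefore not separate from the difference of CA1 given below. The part of both sums in these differences was not tested.

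CA1 was at 1445 and 1022 FPKM in salt-treated Col-0, at 2542 and 2215 in smeb-1 and at 1875 and 2083 in smeb-2 (0.83 ± 0.12, limma adjusted p = 0.00156). ALDH11A3, a non-phosphorylating glyceraldehyde-3-phosphate dehydrogenase of the cytosol, was at 90.8 and 84.5, at 124 and 114 and at 99.6 and 104 (0.33 ± 0.05, limma adjusted p = 0.00277). The 4 mutant libraries lay above both Col-0 libraries in both genes, and both calls stayed under the threshold in all 18 alternative settings. AT2G05510 was again lower, at 149 and 113 in Col-0, 84.5 and 71.5 in smeb-1 and 57.8 and 78.2 in smeb-2 (-0.83 ± 0.21, limma adjusted p = 0.017). Its adjusted p was 0.0754 without Col-0 salt library 0 and 0.0503 without smeb-2 salt library 0. CNX2 was lower by -0.55 ± 0.13 (limma adjusted p = 0.0123), with an adjusted p of 0.0995 without Col-0 salt library 1 and 0.0552 with only the groups compared in the fit. AT4G02725 was higher by 0.38 ± 0.08 (limma adjusted p = 0.0106), with 0.0695 without the same library.

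NIA2, GRF11 and SOFL1 were called near the threshold. NIA2 was at 323 and 546 FPKM in salt-treated Col-0, at 293 and 260 in smeb-1 and at 311 and 313 in smeb-2, so that Col-0 library 0 lay close to the mutants and library 1 far above them (-0.51 ± 0.16, limma adjusted p = 0.0437, and -0.13 with 0.348 without that library). GRF11 was at 6.07 and 9.53, at 5.47 and 4.13 and at 5.37 and 5.66 (-0.49 ± 0.15, limma adjusted p = 0.0352, and -0.21 with 0.316 without Col-0 salt library 1). SOFL1 differed by 0.38 ± 0.13 (limma adjusted p = 0.0487, and 0.17 with 0.396 without that library). These calls were lost in 13, 10 and 14 of the 18 alternative settings.

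The response to salt itself differed between smeb and Col-0 in 9 of 71 members, 5 with a more positive and 4 with a more negative response in smeb, where 6.18% and 3.78% of all genes were called. Libraries that selected the members are part of this comparison, so the counts are a description. The count of 9 ranged from 2 without untreated Col-0 library 1 to 28 without Col-0 salt library 0. NUDT7 had the largest difference: in Col-0 it fell from 121 and 96.9 FPKM to 44.1 and 50.4, while in smeb-1 it was at 47.7 and 64.5 and then at 51.6 and 48.1, and in smeb-2 at 49.0 and 43.0 and then at 59.9 and 54.1. The mutants thus started near the level that Col-0 reached with salt (difference of responses 1.26 ± 0.18, limma adjusted p = 0.00299). ALDH11A3 fell in Col-0 from 140 and 141 to 90.8 and 84.5, and was at 100 and 103 and then at 124 and 114 in smeb-1 and at 101 and 98.4 and then at 99.6 and 104 in smeb-2 (0.81 ± 0.08, limma adjusted p = 0.000328). These 2 calls held in all 18 alternative settings.

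The other 7 were called more weakly. NUC-L1 rose in Col-0 from 136 and 127 to 230 and 247 FPKM, in smeb-1 from 136 and 132 to 168 and 180 and in smeb-2 from 131 and 139 to 212 and 193 (-0.38 ± 0.09, limma adjusted p = 0.0246). AT3G15010 was at 22.2 and 22.7 and then at 25.2 and 30.0 in Col-0, at 21.01 and 20.03 and then at 18.0 and 18.0 in smeb-1, and at 22.6 and 23.9 and then at 20.3 and 20.9 in smeb-2 (-0.46 ± 0.10, limma adjusted p = 0.0191). TGA1 went from 26.7 and 29.0 to 37.6 and 54.3 in Col-0 and stayed between 35.6 and 43.7 in the 8 mutant libraries (-0.68 ± 0.17, limma adjusted p = 0.0335). AT1G78200 (0.38), AT1G73470 (0.33), AT3G06125 (0.52) and AT5G26740, a transporter-like DUF300 protein (-0.31), had adjusted p-values of 0.0155, 0.0259, 0.0464 and 0.044 in limma. Each of the 7 lost its call without at least 1 library, among them an untreated Col-0 library in every case, with adjusted p-values of up to 0.164. AT3G06125 (0.078) and TGA1 (0.0629) also lost it without the filter on low values, and AT5G26740 with median-of-ratios scaling (0.0537), quantile normalization (0.0715) and the suffix as a replicate block (0.0537).

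**Figure D4:**
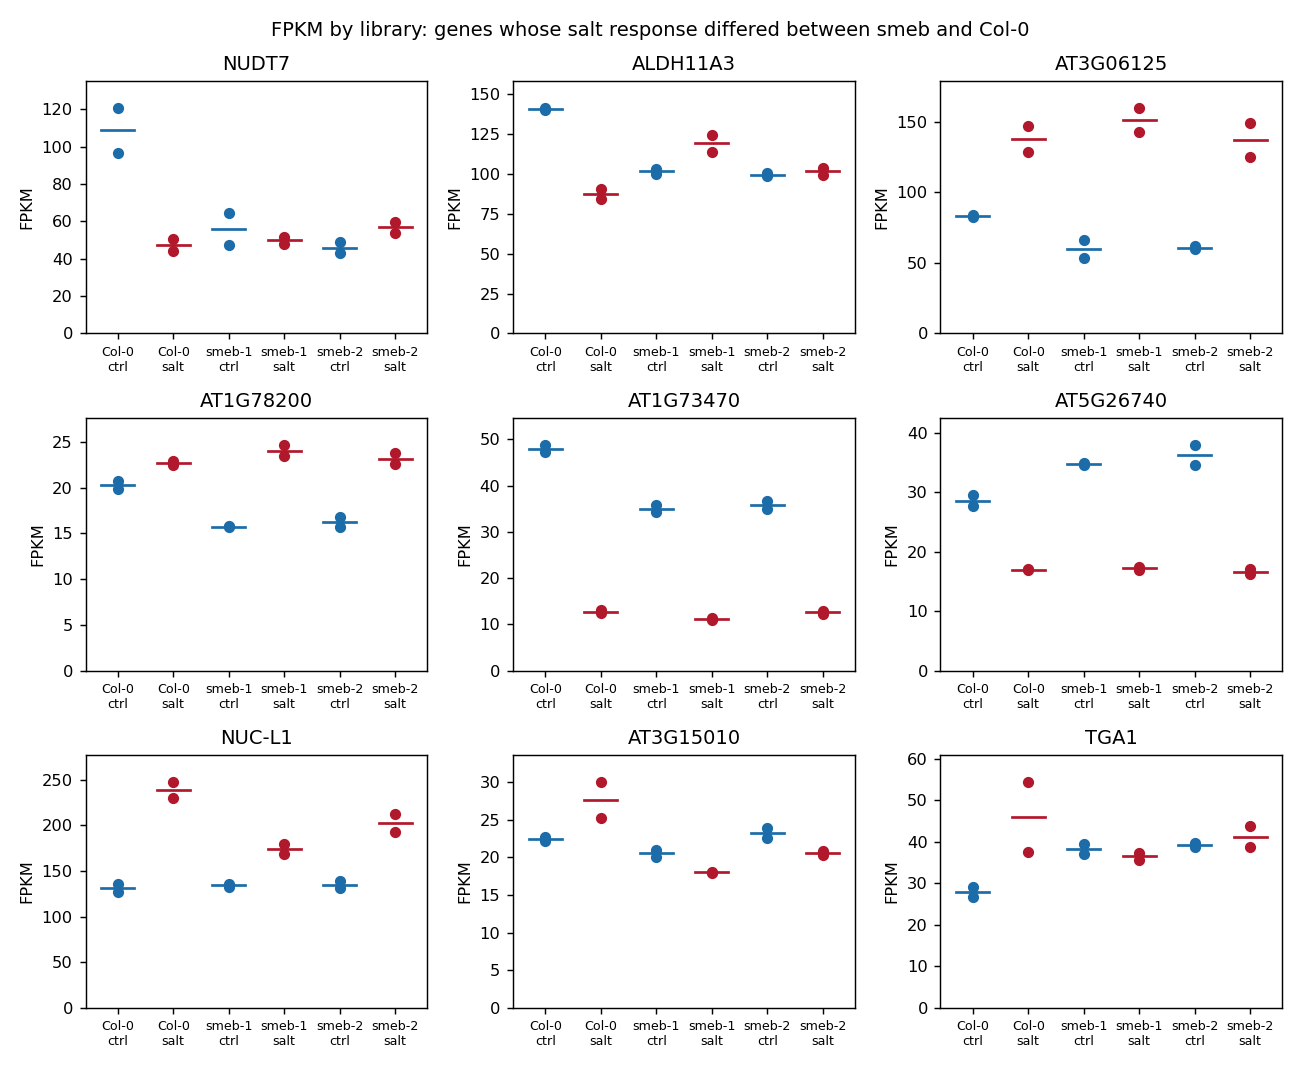
FPKM in each of the 12 libraries (points) and group means (lines) for the 9 genes whose salt response differed between smeb and Col-0; blue is untreated, red is salt-treated. NUDT7 falls in Col-0 from 121 and 96.9 to 44.1 and 50.4 and stays between 43.0 and 64.5 in the mutants, ALDH11A3 falls in Col-0 from 140 and 141 to 90.8 and 84.5, and NUC-L1 rises less in the mutants than in Col-0.

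Lists of the splicing and decay machinery were compared between smeb and Col-0, where 11.6% of all genes were called higher and 13.0% lower without salt and 12.8% and 14.9% with salt. Of 12 genes for Sm core proteins, SmEb included, 1 was higher and 1 lower in untreated smeb, and 1 and 1 with salt. Of 19 SR splicing factors, which bind exonic enhancers, 1 was higher and 3 lower untreated, and 1 and 4 with salt. Of 10 glycine-rich and hnRNP-like RNA-binding proteins, 3 were higher and 1 lower untreated, and 1 and 1 with salt. Of 6 nonsense-mediated decay factors 0 were called in untreated smeb and 3 were lower with salt, with a median of -0.24 beside -0.03 over all genes. With salt in Col-0, where 34.1% of all genes were called higher, 5 of these 6 and 6 of the 12 Sm genes were higher. The members belong to none of these 4 lists.

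CA1 was the 1 member on any list, that of photosynthesis and chloroplast genes. Of its 52 genes 49 were higher in smeb than in Col-0 with salt and 0 lower, with a median of 0.69, and 10 were higher and 12 lower without salt. Of 27 genes of abscisic acid and osmotic stress, 0 were higher and 17 lower in smeb with salt, and 1 was higher and 15 lower without salt. Of 17 light and clock genes 1 was higher and 5 lower with salt, and 5 were higher and 7 lower without salt. With salt, the difference of CA1 between smeb and Col-0 (0.83) lay near the median of the photosynthesis list, but in other comparisons it did not. Without salt CA1 differed by 0.54, beside a list median of -0.07. With salt in Col-0 it changed by -0.39, beside -2.16. The difference of responses was 0.30 for CA1 and not called, beside 0.71.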

How the data were processed

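Total RNA of seedlings was sequenced by the authors. The submitters' processing notes name Trimmomatic 0.32, TopHat2 2.0.13 and the build TAIR10. The deposited expression values are FPKM per gene and library, and the authors' deposited splicing tables give read counts per event (skipping and other reads, libraries pooled), p-values and FDR values. No event caller, strand setting or sequencing depth is stated, so the depth behind FPKM is unknown. Columns were matched to groups by their names. Their suffixes 0 and 1 could not be tied to the labelled replicates. One label names "Cd" for the salt-treated samples, and the labels give the controls 6 h where the protocol allows 0 or 6 h.

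Members and gene lists were chosen with earlier results of these data known. Event shares are other reads divided by all reads, with 95% Wilson intervals. Genes of at least 1 FPKM in 2 or more libraries were tested with limma 3.58.1 (R 4.3.3) on log2(FPKM + 1), with 6 group means, a trended variance and Benjamini-Hochberg adjustment, checked on simulated data. SmEb comparisons average both mutants. Lengths and shares are given with no test. Bases shared by the ends of an interval were counted on RefSeq TAIR10.1. The text names, for each table, the 6 events with the smallest FDR and the longest and shortest event, and for each expression comparison the 4 largest rises and falls among called members with a mean of at least 5 FPKM. All 9 members whose salt response was called are named. Other events were picked after their values were seen, for the size of their change or the place of the interval. A list of translation genes was not used here. Alternatives changed the pseudocount (0.1), the filter (none), the scaling (quantile or median-of-ratios), the samples fitted (only the groups compared, or each library left out), a block for the suffix, and the read minimum (50 or none).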

Additional observations from a re-analysis of the deposited data

Results flagged for a closer look

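The salt response differed between smeb and Col-0, by the test of the difference itself in limma, in 9 genes. They were 7.04% of the members with a more positive and 5.63% with a more negative response, beside 6.18% and 3.78% of all genes. Of these 9 calls, 7 were lost in at least 1 of the 18 alternative settings. On the log2(FPKM + 1) scale the response was more positive in smeb by 1.26 for NUDT7, 0.81 for ALDH11A3, 0.52 for AT3G06125, 0.38 for AT1G78200 and 0.33 for AT1G73470. It was more negative in smeb, with -0.68 for TGA1, -0.46 for AT3G15010, -0.38 for NUC-L1 and -0.31 for AT5G26740. The groups of 2 libraries are too small to look for single outlying libraries.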

How the results depend on the processing

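The medians of event length and of the change in read share were compared with a 95% interval of the main median, taken from the ranked events. They stayed within it under other read minima and with 1 event per gene. Keeping only the events at an annotated intron of the gene was an alternative chosen after seeing the data. The median change in read share of the SmEb-independent members was then 3.30 points instead of -0.10, outside its interval. The other 3 medians stayed within theirs. Of the counts of called members, the 23 calls between smeb and Col-0 with salt were 9 with only the groups compared in the fit. Leaving out single libraries gave 44 to 50 calls for salt in Col-0 (51 with all libraries), 45 to 56 in smeb-1 (53), 39 to 60 in smeb-2 (54), 13 to 36 between untreated smeb and Col-0 (28), 10 to 36 with salt (23), 2 to 28 for the difference of responses (9, with 28 without Col-0 salt library 0 and 2 without untreated Col-0 library 1) and 48 to 62 for salt-treated smeb against untreated Col-0 (57, a comparison chosen after seeing the data). Where a group was left with 1 library, that library is assumed to vary like the others. With the suffix as a replicate block the counts were 51, 53, 53, 28, 20, 8 and 56 in the same order. Same-suffix libraries correlated between -0.125 and 0.112 in their deviations from group means, so they shared little of these deviations. Whether the libraries were paired by design cannot be told from this. For CA1 the salt difference was -0.39 in Col-0 and -0.25 in smeb-2, and with quantile normalization it was 0.55 and 0.59 instead; the cause was not tested. In each of the 3 lines the 8 genes named by the rule for the largest salt differences kept their call in all 18 settings. Depth is unknown for the FPKM values, and events with under 50 reads in a condition have wide intervals.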
